A study of Mus musculus with 2 samples.

Results

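The keratin genes of the cochlear epithelium were followed in single cells of adult mouse cochlear explants: Krt7, Krt8, Krt18, Krt19, Krt17 and Krt23. The set was listed by symbol, all 6 genes had a row in both libraries, and they are 6 of the 31053 genes counted. The Cocktail library came from whole cochleae of C57BL/6J mice aged 4 to 6 weeks that were held for 4 days with valproic acid (VPA, 1.5 mM), lithium chloride (LiCl, 8 mM), forskolin (FSK, 20 µM) and the siRNAs siFIR and siMxi1 (0.02 µM each). The Vehicle library came from the same kind of explant treated for 4 days with the vehicle, which was sterile water with 0.1% DMSO. Both groups then received ad.Atoh1, an adenovirus that carries the hair cell factor Atoh1, for 2 weeks, so no library lacks the virus, and the labels name no cell type to which it is limited. The sensory epithelium was dissected, dissociated with trypsin and captured with a 10x 3' kit. Each library pooled 5 cultures in 1 capture and cells could not be assigned to cultures, so every group is 1 sample, the difference between libraries has no replicate check, and no test of treatment was made.

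Keratins are the intermediate filament proteins of epithelial cells. A filament is built from heterodimers of a type I and a type II keratin, and a keratin without a partner of the other type is usually degraded. Krt8 (type II) and Krt18 (type I) are the basic pair of simple epithelia, including the supporting and other non-sensory cells of the cochlear duct. Krt7 (type II) and Krt19 (type I) are added to that pair in ducts and other lining epithelia. Krt17 (type I) is known from hair follicles and from stressed or injured skin. Krt23 (type I) is less studied and was described in human pancreatic cancer cells as a keratin induced by inhibitors of histone deacetylases, the class of drug to which valproic acid belongs.

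The type II genes Krt7 (ENSMUSG00000023039, chr15:101411043-101430313, plus strand) and Krt8 (ENSMUSG00000049382, chr15:101996698-102004482, minus strand) lie in the type II cluster in the GRCm38 annotation of GENCODE M21. Krt18 (ENSMUSG00000023043, chr15:102028180-102032027, plus strand) is a type I gene that lies beside Krt8 rather than with the other type I genes. The 5′ ends of Krt8 and Krt18 are 23698 bp apart and the genes are transcribed away from each other. Krt19 (ENSMUSG00000020911, chr11:100140810-100148665), Krt17 (ENSMUSG00000035557, chr11:100256217-100261029) and Krt23 (ENSMUSG00000006777, chr11:99477974-99493137) lie in the type I cluster, all on the minus strand. Krt7 overlaps the antisense model Gm671 and Krt8 overlaps the model Gm36026 on the opposite strand. How the counting treated strand is not given in the sources used here, so reads of these overlaps may not be told apart.

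The promoters of Krt8 and Krt18 are shown because this neighbouring pair separated in Gal and Cck rich cells, and those of Krt7 and Krt23 because these genes were high in the same cells. Each window runs from 250 bases before to 50 bases after the RefSeq start (GRCm38.p6) and is written 5′ to 3′ on the gene's strand. Windows were at hand for 4 of the 6 genes, without Krt17 and Krt19. Capitals mark matches on either strand to a TATA box (TATAAA), a GC box (GGGCGG), an AP-1 site (TGANTCA), an E-box (CAGCTG) or a CRE (TGACGTCA).
The Krt8 window is chr15:102004293-102004592, minus strand.
Krt8: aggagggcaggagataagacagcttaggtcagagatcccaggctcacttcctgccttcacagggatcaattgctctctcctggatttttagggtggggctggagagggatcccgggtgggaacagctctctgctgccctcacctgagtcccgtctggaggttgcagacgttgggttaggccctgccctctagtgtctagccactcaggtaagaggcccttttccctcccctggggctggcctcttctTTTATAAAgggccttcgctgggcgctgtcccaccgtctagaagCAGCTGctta
The Krt18 window is chr15:102027966-102028265, plus strand.
Krt18: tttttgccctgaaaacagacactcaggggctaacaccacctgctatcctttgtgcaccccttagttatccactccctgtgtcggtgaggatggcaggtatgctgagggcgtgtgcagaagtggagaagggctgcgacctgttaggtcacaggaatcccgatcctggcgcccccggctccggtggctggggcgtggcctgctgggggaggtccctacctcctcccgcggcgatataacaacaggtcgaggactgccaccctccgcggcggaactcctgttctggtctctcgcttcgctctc
The Krt7 window is chr15:101412153-101412452, plus strand.
Krt7: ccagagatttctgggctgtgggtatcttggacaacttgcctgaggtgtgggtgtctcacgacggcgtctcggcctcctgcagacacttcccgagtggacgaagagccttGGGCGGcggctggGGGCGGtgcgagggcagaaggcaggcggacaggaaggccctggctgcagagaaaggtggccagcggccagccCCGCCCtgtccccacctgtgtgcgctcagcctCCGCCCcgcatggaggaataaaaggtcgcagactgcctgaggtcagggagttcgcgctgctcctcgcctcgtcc
The Krt23 window is chr11:99493071-99493370, minus strand.
Krt23: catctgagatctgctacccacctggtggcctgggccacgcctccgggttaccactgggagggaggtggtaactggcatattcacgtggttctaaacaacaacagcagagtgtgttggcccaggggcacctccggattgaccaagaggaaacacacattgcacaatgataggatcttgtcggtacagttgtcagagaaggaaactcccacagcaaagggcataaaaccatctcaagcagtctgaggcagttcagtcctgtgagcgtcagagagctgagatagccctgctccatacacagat
Counting from 1 at the 5′ end of the window, Krt8 held TATAAA on both strands in 1 overlapping run, from base 248 and from base 250, and an E-box from base 291. Krt7 held 4 GC boxes, which begin at bases 110, 123, 195 and 227. None of the 5 words was found in the Krt18 or the Krt23 window. Among 32851 RefSeq windows of this length, TATAAA was in 13.6%, GGGCGG in 35.7%, TGANTCA in 7.81%, CAGCTG in 16.3% and TGACGTCA in 1.79%. The 4 windows therefore did not share a word, and a match describes letters and not the binding of a factor. The GC content was 66.3% in Krt7, 58% in Krt8, 61.3% in Krt18 and 53% in Krt23, against a mean of 53.8% over all windows.

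The Cocktail library held 1329 cells of 1403 barcodes after filtering (at least 500 UMIs, 300 genes and at most 20% mitochondrial UMIs), and the Vehicle library held 1584 of 1688. A UMI is 1 captured transcript molecule, and the median cell had 10391 UMIs in Cocktail and 12267 UMIs in Vehicle cells. The libraries shared 0 barcodes, and 1 barcode in each passed both the Epcam and the Dcn threshold. Levels are UMIs of a gene summed over cells per 1000000 UMIs (CPM), with 95% Poisson intervals in parentheses. Ratios are log2 with exact conditional 95% intervals, and all intervals cover counting error only and not the spread between cultures. A value was called higher or lower where its interval excluded 0, and was called past 2-fold where the ratio reached that size, whatever its interval.

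Cells were sorted into gates, which are groups set by thresholds on marker genes. The Gal and Cck rich gate took cells with at least 2000 CPM of Gal (galanin, a neuropeptide) and 1000 CPM of Cck (cholecystokinin), and held 232 Cocktail and 175 Vehicle cells. The Ceacam16 gate (at least 200 CPM of a gene for a tectorial membrane glycoprotein) held 119 Cocktail and 53 Vehicle cells. The Tecta gate (at least 100 CPM of the gene of alpha-tectorin, another tectorial membrane protein) held 20 Cocktail and 64 Vehicle cells, too few for a comparison between libraries. The other Epcam-positive gate (at least 100 CPM of Epcam, an epithelial adhesion gene) held 314 Cocktail and 415 Vehicle cells. Cells with 500 CPM or more over 5 hair cell genes formed the bundle gate, those with 500 CPM or more of Dcn formed the Dcn gate, and 544 Cocktail and 670 Vehicle cells fell outside every gate. All 6 epithelial markers examined (Epcam, Cdh1, Cldn6, Cldn7, Cldn3 and Spint2) were present in these 4 gates. Their summed level was 1314 CPM in Cocktail and 1201 CPM in Vehicle cells of the Gal and Cck rich gate, against 3007 CPM in Cocktail and 3214 CPM in Vehicle cells of the other Epcam-positive gate. Epcam set the second of these gates, and the 5 other markers summed to 961 CPM in Cocktail and 881 CPM in Vehicle cells of the Gal and Cck rich gate, against 1704 CPM in Cocktail and 1882 CPM in Vehicle cells of the other Epcam-positive gate. Of 8 hair cell markers, 5 set the bundle gate, and cells high in them were taken out before the other gates, so their low level elsewhere was fixed by the gating. The 3 others (Pou4f3, Myo7a and Otof) summed to 49.6 CPM in Cocktail and 71.8 CPM in Vehicle cells of the Gal and Cck rich gate, against 841 CPM in Cocktail and 904 CPM in Vehicle cells of the bundle gate. The part of other cell types in the keratin levels was not tested.

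The keratins fell into different sets in these gates. Gal and Cck rich cells held Krt8 with Krt7 and Krt23, little Krt18 and almost no Krt19. Ceacam16, Tecta and other Epcam-positive cells held Krt8 with Krt18 as the main pair and some Krt19. Krt17 rested on a few cells. Both libraries showed these sets, and for Krt7, Krt18 and Krt23 the ratios between libraries within a gate were smaller than those between Gal and Cck rich and other Epcam-positive cells.

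Dcn-positive cells, which were high in fibroblast markers and should lack keratins, were taken as the background. They were not fibroblasts alone. Osteoblast markers (Ibsp, Bglap, Ifitm5 and Alpl) summed to 10.1 CPM in Cocktail and 843 CPM in Vehicle cells. Endothelial markers (Cldn5, Pecam1, Cdh5 and Emcn) summed to 142 CPM in Cocktail and 116 CPM in Vehicle cells. Whether keratin UMIs in this gate came from free RNA was not tested. Of the 6 genes, 4 had 1 UMI each in 60 Cocktail cells (0.840 CPM each) and 2 had 1 UMI each in 53 Vehicle cells (0.888 CPM each), and the others had 0, at median depths of 19239 and 17904 UMIs. Values near 1 CPM or less in the epithelial gates are therefore not told apart from background. The intervals of genes with 1 UMI reached 4.68 CPM in Cocktail and 4.95 CPM in Vehicle cells, so values up to a few CPM may not be either.

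**Figure D1:**
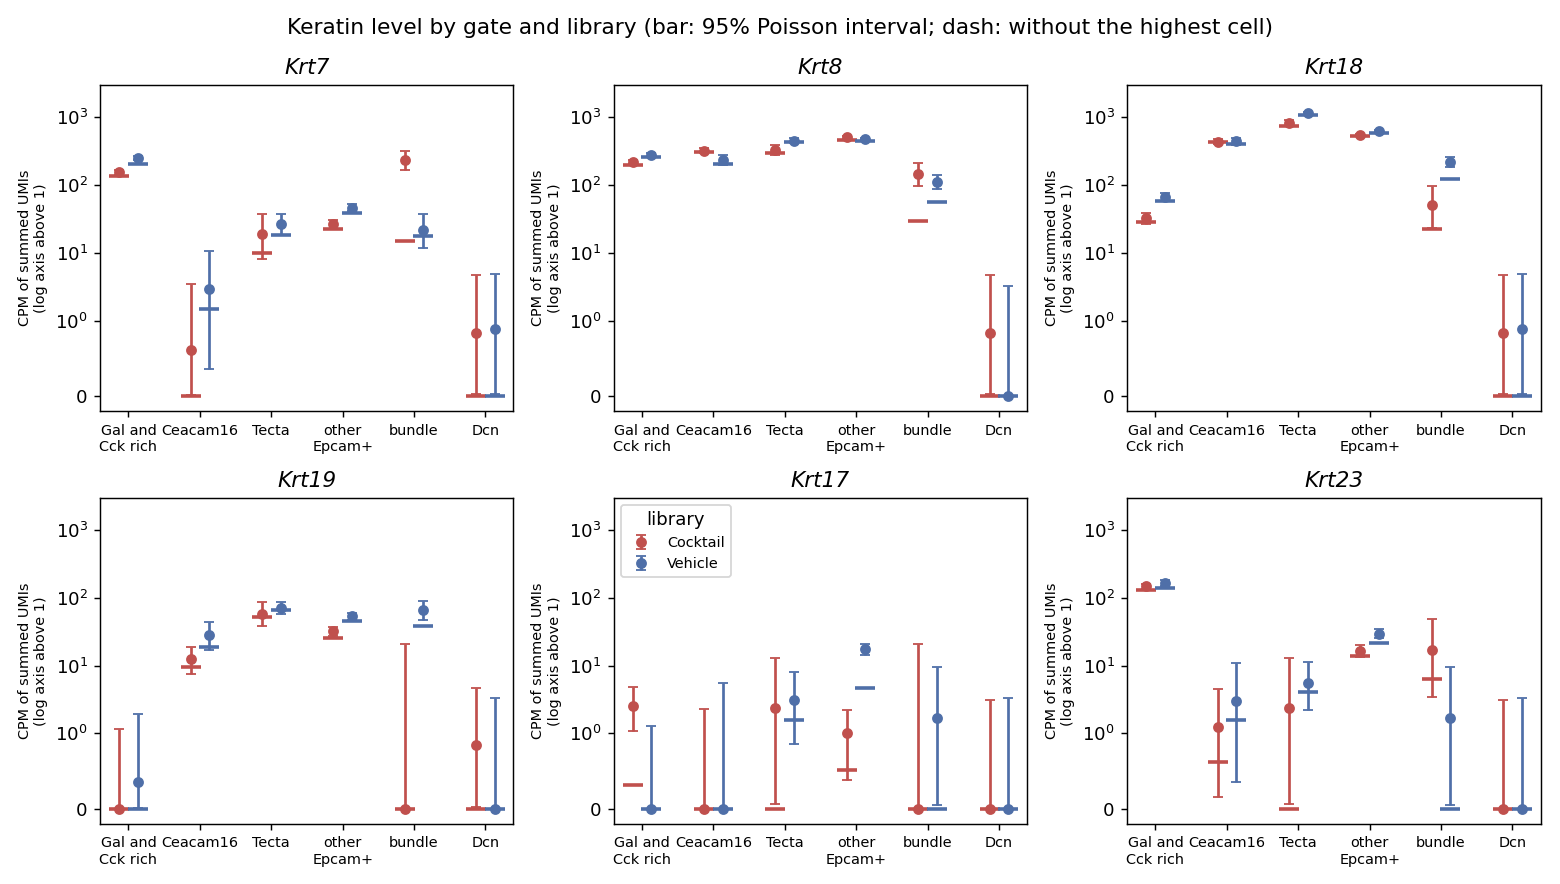
Level of each keratin in 6 gates, as CPM of summed UMIs (log axis above 1), with Cocktail in red left of Vehicle in blue, 95% Poisson intervals as bars and the level without the highest cell as a dash. Krt7 and Krt23 are highest among the 4 epithelial gates in Gal and Cck rich cells, where Krt18 is at its lowest and Krt19 is at or near 0, and the bundle gate holds 9 Cocktail and 37 Vehicle cells.

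Krt8 was the keratin that every epithelial gate shared. In Gal and Cck rich cells it stood at 220.1 CPM (204 to 237) in Cocktail and 274 CPM (255 to 294) in Vehicle cells. In Ceacam16 cells it stood at 322 CPM (295 to 350.3) in Cocktail and 235 CPM (200.1 to 275) in Vehicle cells. The other Epcam-positive cells had the highest Cocktail level, at 503.6 CPM (486 to 522), and 473 CPM (455 to 490.5) in the Vehicle library. Tecta cells had 332 CPM (279 to 391) in Cocktail and 451 CPM (415 to 489) in Vehicle cells. The order of the Cocktail levels was other Epcam-positive, Tecta, Ceacam16 and Gal and Cck rich, and the intervals of Tecta and Ceacam16 overlapped. In the Vehicle library the intervals of other Epcam-positive and Tecta cells overlapped, and so did those of Gal and Cck rich and Ceacam16 cells. The levels of Krt8 therefore spanned only a few fold between gates.

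Krt18, the usual partner of Krt8, varied far more between gates. It stood at 32.4 CPM (26.5 to 39.3) in Cocktail and 67.3 CPM (58.1 to 77.4) in Vehicle cells of the Gal and Cck rich gate. The Ceacam16 gate held 439 CPM (408 to 473) in Cocktail and 442 CPM (394 to 496) in Vehicle cells. In the Tecta gate it reached 827 CPM (743 to 918) in Cocktail and 1139 CPM (1081 to 1199) in Vehicle cells, the highest level of any keratin in any gate. Other Epcam-positive cells lay between, at 552 CPM (533 to 572) in Cocktail and 630.4 CPM (610.2 to 651) in Vehicle cells. The order Tecta, other Epcam-positive, Ceacam16 and Gal and Cck rich was the same in both libraries, and no intervals of neighbours in it overlapped. Most Gal and Cck rich cells had no Krt18 UMI: 15.5% of 232 Cocktail cells (Clopper-Pearson interval 11.1% to 20.8%) and 15.4% of 175 Vehicle cells (10.4% to 21.6%) had one. In the Dcn gate 1.67% of Cocktail and 1.89% of Vehicle cells had a Krt18 UMI.

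The ratio of Krt8 to Krt18 UMIs separated the gates. It was 6.79 (5.52 to 8.42) in Cocktail and 4.07 (3.47 to 4.79) in Vehicle cells of the Gal and Cck rich gate. Ceacam16 cells had 0.732 (0.653 to 0.821) in Cocktail and 0.532 (0.436 to 0.647) in Vehicle cells. Tecta cells had 0.401 (0.328 to 0.489) in Cocktail and 0.396 (0.359 to 0.436) in Vehicle cells, and other Epcam-positive cells had 0.912 (0.867 to 0.959) and 0.750 (0.713 to 0.788) in the same libraries. Only the Gal and Cck rich gate among these 4 had more Krt8 than Krt18 UMIs. Without the highest cell of each gene its ratio was 7.09 in Cocktail and 4.54 in Vehicle cells. These ratios compare UMIs captured at the 3' end and are not corrected for length or capture.

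Krt8 and Krt18 were also compared cell by cell after each cell was thinned at random to 5000 UMIs, which left out shallower cells. Of 123 Gal and Cck rich Cocktail cells, 52 had Krt8 alone, 2 had Krt18 alone, 9 had both and 60 had neither. Of 130 Vehicle cells of that gate, 38 had Krt8 alone, 0 had Krt18 alone, 17 had both and 75 had neither. Most cells with Krt18 in this gate thus also had Krt8, while most cells with Krt8 had no Krt18 at this depth. Both were in 7.32% of Cocktail and 13.1% of Vehicle cells, against 4.44% and 5.53% as the product of their separate shares. Of 250 Cocktail cells of the other Epcam-positive gate, 53 had Krt8 alone, 34 had Krt18 alone and 92 had both. Of 311 Vehicle cells of that gate, 58 had Krt8 alone, 33 had Krt18 alone and 146 had both. The share with both there was 36.8% in Cocktail and 46.9% in Vehicle cells, against products of 29.2% and 37.8%. Across cells with at least 5000 UMIs of the Gal and Cck rich gate, Pearson's r between Krt8 and Krt18 was 0.24 in 123 Cocktail and 0.66 in 130 Vehicle cells, on log(1 + UMIs per 10000). In other Epcam-positive cells it was 0.61 in 250 Cocktail and 0.63 in 311 Vehicle cells. Cells of 1 library share depth and capture, so r is given as a description.

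**Figure D2:**
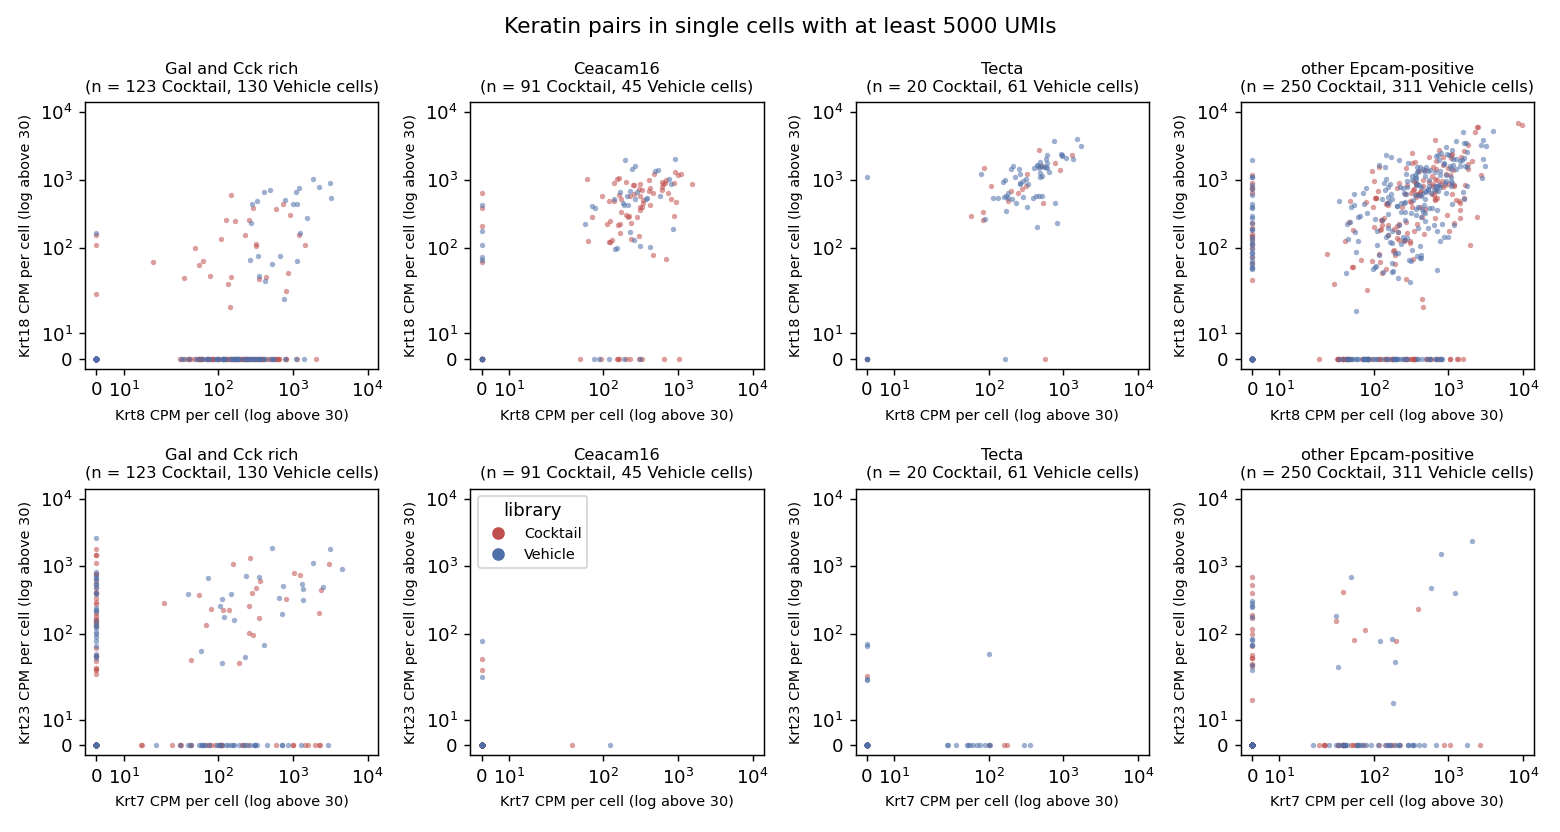
CPM per cell of Krt8 against Krt18 (upper row) and of Krt7 against Krt23 (lower row) in cells with at least 5000 UMIs, by gate, with Cocktail cells in red and Vehicle cells in blue (log axes above 30). Many Gal and Cck rich cells lie along the Krt8 axis with Krt18 at 0, and Krt7 and Krt23 are spread over this gate and rare in Ceacam16 cells.

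Among the 4 epithelial gates, Krt7, the type II keratin of ducts, was highest in Gal and Cck rich cells. It stood there at 154 CPM (140.4 to 168) in Cocktail and 249.5 CPM (232 to 268) in Vehicle cells. Other Epcam-positive cells had 26.4 CPM (22.4 to 31.0) in Cocktail and 46.1 CPM (40.8 to 52.0) in Vehicle cells. Tecta cells had 18.7 CPM (8.07 to 36.8) in Cocktail and 26.7 CPM (18.5 to 37.3) in Vehicle cells, and their interval overlapped that of other Epcam-positive cells in the Cocktail library and lay below it in the Vehicle library. Ceacam16 cells were at or near background, with 1 UMI in Cocktail and 2 UMIs in Vehicle cells. The Gal and Cck rich gate therefore held 68.4% of all Krt7 UMIs of the Cocktail and 68.0% of those of the Vehicle library. Within that gate Krt7 was patchy, since 29.7% of Cocktail and 39.4% of Vehicle cells had a UMI and the highest cell held 67 of 493 Cocktail and 133 of 716 Vehicle UMIs. In the Dcn gate 1.67% of Cocktail and 1.89% of Vehicle cells had one. These shares are not matched for depth. After thinning to 5000 UMIs, 28.5% of Cocktail and 30% of Vehicle cells of the Gal and Cck rich gate had a Krt7 UMI.

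Krt23 followed the same gate. It stood at 147 CPM (134 to 161) in Cocktail and 166 CPM (151 to 181) in Vehicle cells of the Gal and Cck rich gate. Other Epcam-positive cells had 16.7 CPM (13.5 to 20.3) in Cocktail and 29.6 CPM (25.3 to 34.3) in Vehicle cells. In Ceacam16 cells 2 UMIs were counted in each library, and in Tecta cells 1 UMI in Cocktail and 7 UMIs in Vehicle cells. The Gal and Cck rich gate held 78.1% of the Krt23 UMIs of the Cocktail and 69.0% of those of the Vehicle library. Krt7 and Krt23 were found both together and apart in cells of this gate. After thinning to 5000 UMIs, 15 of 123 Cocktail cells had both, 20 had Krt7 alone and 21 had Krt23 alone, and 15 of 130 Vehicle cells had both, 24 had Krt7 alone and 19 had Krt23 alone. Both were thus in 12.2% of Cocktail and 11.5% of Vehicle cells, against 8.33% and 7.85% as the product of their separate shares. Pearson's r between Krt7 and Krt23 within the gate was 0.19 in Cocktail and 0.34 in Vehicle cells.

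Krt19, a type I keratin of lining epithelia, was at or near 0 in Gal and Cck rich cells, as Krt18 was low there. It had 0 UMIs in 232 Cocktail cells of that gate, which allows a level of up to 0.935 CPM (3 UMIs), and 1 UMI in 175 Vehicle cells. The highest levels among the 4 epithelial gates were in Tecta cells, at 58.4 CPM (37.8 to 86.2) in Cocktail and 71.4 CPM (57.5 to 87.6) in Vehicle cells. Other Epcam-positive cells had 32.1 CPM (27.7 to 37.1) in Cocktail and 53.3 CPM (47.6 to 59.6) in Vehicle cells. Ceacam16 cells had 12.3 CPM (7.52 to 19.0) in Cocktail and 28.3 CPM (17.0 to 44.2) in Vehicle cells. The order of the gates was the same in both libraries, and the intervals of Tecta and other Epcam-positive cells did not overlap in the Cocktail library and did in the Vehicle library. After thinning to 5000 UMIs, 22 Cocktail and 41 Vehicle cells of the other Epcam-positive gate had Krt19 with Krt18, and 1 Cocktail and 7 Vehicle cells had Krt19 without it. Both were in 8.8% of Cocktail and 13.2% of Vehicle cells, against 4.64% and 8.88% as the product of their separate shares.

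Krt17, the stress-linked keratin, was rare. The Cocktail library held 18 UMIs in 9 cells, and the Vehicle library held 112 UMIs in 12 cells. The highest cell had 7 of the Cocktail UMIs and lay in the Gal and Cck rich gate, and the highest Vehicle cell had 75 UMIs and lay in the other Epcam-positive gate. In that gate Krt17 stood at 1.03 CPM in Cocktail and 17.4 CPM in Vehicle cells, or 0.520 and 4.64 CPM without the highest cell. Krt5 and Krt14, the keratins of basal skin cells, were absent from both of those cells. All 36 Krt5 UMIs of the Vehicle library lay in 1 other cell, which had Krt17, and all 14 Krt14 UMIs lay in cells with Krt17. Of 4 keratinocyte markers (Krt5, Krt14, Krt15 and Trp63), none was found in Gal and Cck rich Cocktail cells and Trp63 alone, at 0.349 CPM, in Vehicle cells of that gate. Their summed level in other Epcam-positive cells was 0.172 CPM in Cocktail and 9.23 CPM in Vehicle cells, and their part in the Krt17 level was not tested.

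**Figure D3:**
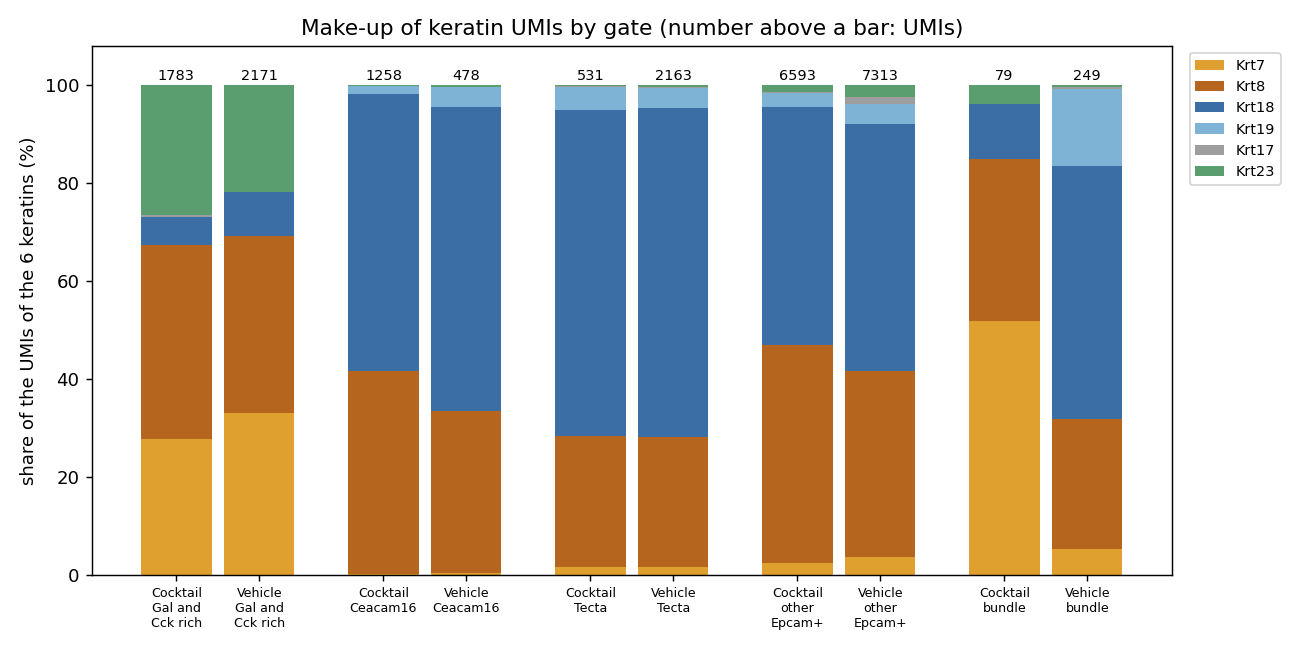
Share of each keratin among the UMIs of the 6 genes, by gate and library, with the number of UMIs above each bar. Orange and brown are the type II genes Krt7 and Krt8, which make up 67.2% of keratin UMIs in Cocktail and 69.2% in Vehicle cells of the Gal and Cck rich gate.

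By type, the type II genes Krt7 and Krt8 gave 67.2% of the keratin UMIs in Cocktail and 69.2% in Vehicle cells of the Gal and Cck rich gate. They gave, among other Epcam-positive cells, 46.8% in Cocktail and 41.5% in Vehicle cells. In Ceacam16 cells they gave 41.6% in Cocktail and 33.5% in Vehicle cells, and in Tecta cells 28.2% in each. Where Krt18 was low, Krt23 was the main type I gene counted, with 26.5% of keratin UMIs in Cocktail and 21.9% in Vehicle cells of the Gal and Cck rich gate. The sum of the 6 keratins was 556 CPM (530.3 to 582) in Cocktail and 757 CPM (725 to 789) in Vehicle cells of that gate, against 1132 CPM (1105 to 1160) in Cocktail and 1249 CPM (1221 to 1278) in Vehicle cells of the other Epcam-positive gate. Gal and Cck rich cells thus held fewer keratin UMIs than that gate as a whole. Against only those of its cells with at least 2000 CPM of Gal, a split added after the data were seen, the log2 ratio of the sum turned to 0.15 in Cocktail and 0.87 in Vehicle cells. Over Ceacam16 cells the sum was lower in Cocktail cells, at -0.48 (-0.58 to -0.37), and not told apart in Vehicle cells, at 0.09 (-0.06 to 0.23).

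Set against other Epcam-positive cells of the same library, Gal and Cck rich cells were lower in Krt18 by log2 -4.09 (-4.39 to -3.81) in Cocktail and -3.23 (-3.44 to -3.02) in Vehicle cells. Krt7 was higher by 2.54 (2.28 to 2.81) in Cocktail and 2.44 (2.23 to 2.64) in Vehicle cells. Krt23 was higher by 3.14 (2.83 to 3.47) in Cocktail and 2.49 (2.23 to 2.75) in Vehicle cells. Krt8 was lower by -1.19 (-1.31 to -1.08) in Cocktail and -0.79 (-0.90 to -0.67) in Vehicle cells. Krt19 was at least 34.3-fold lower in Cocktail cells, with the 0 UMIs set to a floor of 3, and its Vehicle ratio rested on 1 UMI (-7.26, -12.57 to -4.77). These sizes depended on which cells were set against each other. Against only the cells with at least 2000 CPM of Gal, Krt18 was at -1.95 in Cocktail and -0.24 in Vehicle cells, the second under 2-fold. With only cells that held at least 2 Atoh1 UMIs and 5000 UMIs on both sides, Krt23 was at 3.73 in Cocktail and 0.22 in Vehicle cells and Krt7 at 1.29 and 0.89, so both were under 2-fold in Vehicle cells. As a mean of per-cell CPM, Krt8 was under 2-fold in Cocktail cells, at -0.65. Past 2-fold in the Cocktail library were 2 of the 6 genes higher, against 6.22% of 11119 genes with at least 50 UMIs, and 3 lower, against 11.6%. In the Vehicle library 2 were higher, against 8.45% of 11242 genes, and 3 were lower, against 11.7%. The lower ones were Krt8, Krt18 and Krt19 in the Cocktail library, and Krt18, Krt19 and Krt17 in the Vehicle library, where 75 of the 102 Krt17 UMIs on the other side lay in the 1 cell named above.

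Ceacam16 cells held the Krt8 and Krt18 pair, with Krt7 and Krt23 at or near background. Over other Epcam-positive cells, Krt18 was lower by -0.33 (-0.45 to -0.21) in Cocktail and -0.51 (-0.69 to -0.34) in Vehicle cells. Krt8 was lower by -0.65 (-0.78 to -0.51) in Cocktail and -1.01 (-1.25 to -0.77) in Vehicle cells. Past 2-fold lower were 3 genes in the Cocktail library (Krt7, Krt19 and Krt23), against 16.5% of 10461 genes, and 4 in the Vehicle library (Krt7, Krt8, Krt17 and Krt23), against 16.4% of 10319 genes. None was past 2-fold higher, against 3.15% of genes in Cocktail and 4.34% in Vehicle cells. The median log2 ratio of all genes in this contrast was itself -0.27 in Cocktail and -0.23 in Vehicle cells, and the Krt18 interval in Cocktail cells included the Cocktail median. Tecta cells went the other way for Krt18, which was higher than in other Epcam-positive cells by 0.58 (0.42 to 0.74) in Cocktail and 0.85 (0.76 to 0.94) in Vehicle cells. Krt19 was also higher there, by 0.86 (0.20 to 1.47) in Cocktail and 0.42 (0.07 to 0.76) in Vehicle cells. Past 2-fold were 0 genes higher, against 6.01% in Cocktail and 4.52% in Vehicle cells. Krt23 was past 2-fold lower in the Cocktail library, against 17.8% of 10162 genes, and Krt17 and Krt23 in the Vehicle library, against 10.9% of 10645 genes. The median of all genes was -0.16 in Cocktail and -0.09 in Vehicle cells.

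Gal and Cck rich cells set directly against Ceacam16 cells had Krt7 higher by 7.96 (5.48 to 13.27) in Cocktail and 6.39 (4.53 to 9.44) in Vehicle cells, on 1 and 2 UMIs in Ceacam16 cells. Krt18 was lower by -3.76 (-4.07 to -3.46) in Cocktail and -2.72 (-2.99 to -2.45) in Vehicle cells. Past 2-fold were Krt7 and Krt23 higher, against 20.5% of genes in Cocktail and 22.8% in Vehicle cells, and Krt18 lower, against 9.48% and 10.1%. Against Tecta cells, Krt7 was higher by 3.04 (2.05 to 4.26) in Cocktail and 3.23 (2.73 to 3.77) in Vehicle cells. Krt18 was lower there by -4.67 (-5.00 to -4.35) in Cocktail and -4.08 (-4.31 to -3.86) in Vehicle cells. Krt7 and Krt23 were past 2-fold higher, against 21% of genes in Cocktail and 17.4% in Vehicle cells. Krt18 was past 2-fold lower in Cocktail cells, against 8.28%, and Krt18 and Krt19 in Vehicle cells, against 11%. The median of all genes was 0.30 in Cocktail and 0.31 in Vehicle cells over the Ceacam16 gate, and 0.24 and 0.16 over the Tecta gate, well inside these ratios.

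Krt18 was also lower in other Epcam-positive cells that held Gal or Atoh1 than in those without. These splits were added after the data were seen. Other Epcam-positive cells with at least 2000 CPM of Gal had Krt18 at 126 CPM in 61 Cocktail and 79.2 CPM in 61 Vehicle cells. Those with less Gal had Krt18 at 672 CPM in 253 Cocktail and 749 CPM in 354 Vehicle cells. The log2 ratio of Krt18 between these sets was -2.42 (-2.66 to -2.19) in Cocktail and -3.24 (-3.57 to -2.92) in Vehicle cells, or -2.98 and -3.71 without the highest cells. The Krt8 to Krt18 ratio was 2.19 and 2.66 with Gal against 0.845 and 0.706 without. Krt19 had 1 UMI in the cells with Gal of each library. Set against only the cells with Gal, Gal and Cck rich cells of the Vehicle library were higher in Krt8, by 0.38.

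Atoh1 was compared in cells with at least 5000 UMIs, where at least 2 Atoh1 UMIs was set against 0. In other Epcam-positive cells, Krt18 stood at 191 CPM in 53 Cocktail and 343 CPM in 32 Vehicle cells with Atoh1. It stood at 690.3 CPM in 168 Cocktail and 726 CPM in 242 Vehicle cells without Atoh1. The log2 ratio was -1.85 (-2.04 to -1.67) in Cocktail and -1.08 (-1.27 to -0.90) in Vehicle cells. Within the Gal and Cck rich gate the same split put Krt18 at -0.62 (-1.26 to 0.01) in Cocktail cells, not told apart from 0, and higher with Atoh1, at 0.83 (0.36 to 1.30), in Vehicle cells. Krt7 in that gate was lower with Atoh1 in Cocktail cells, at -1.99 (-2.33 to -1.67). In Vehicle cells it was not told apart, at -0.22 (-0.48 to 0.03). In other Epcam-positive cells Krt8 differed less, by -0.11 (-0.24 to 0.02) in Cocktail and -0.38 (-0.56 to -0.20) in Vehicle cells. Krt19 was lower with Atoh1 by -4.24 in the Cocktail, on 3 UMIs, and -4.69 in the Vehicle library, on 2 UMIs. Krt23 was higher with Atoh1 in Vehicle cells, by 3.83 (3.23 to 4.47), and was not told apart in Cocktail cells, at -0.49 (-1.39 to 0.32). Krt7 was also higher with Atoh1 in Vehicle cells, by 1.96 (1.55 to 2.37), and was not told apart in Cocktail cells, at 0.05 (-0.51 to 0.58). The differences between the libraries were not tested. The cells with Atoh1 were deeper, with median depths of 25680 UMIs in Cocktail and 21668 UMIs in Vehicle cells, against 20990 and 14315 UMIs without, and the part of depth in these ratios was not tested. Vector and endogenous Atoh1 transcripts are not told apart in the counts.

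Between the libraries as a whole, the 6 keratins together did not differ beyond counting error. Their sum was 545 CPM (534 to 555) in Cocktail and 553 CPM (544 to 563) in Vehicle cells, a log2 ratio of -0.02 (-0.06 to 0.01). The single genes lay on both sides of 0. Krt8 stood at 229 CPM (222 to 236) in Cocktail and 194 CPM (189 to 200.2) in Vehicle cells, a log2 ratio of 0.24 (0.18 to 0.30). Krt18 stood at 234 CPM (228 to 241) in Cocktail and 258 CPM (251 to 264) in Vehicle cells, a log2 ratio of -0.14 (-0.19 to -0.08). The whole Cocktail library thus had as many Krt8 as Krt18 UMIs, at a ratio of 0.976 (0.937 to 1.02), against 0.754 (0.725 to 0.784) in the Vehicle library. In such sums, fewer cells of a gate and fewer UMIs per cell cannot be told apart.

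Krt19 stood at 12.54 CPM (11.02 to 14.2) in Cocktail and 20.4 CPM (18.6 to 22.4) in Vehicle cells, a log2 ratio of -0.70 (-0.93 to -0.48). Krt7 stood at 36.9 CPM (34.3 to 39.7) in Cocktail and 45.7 CPM (43.0 to 48.6) in Vehicle cells, a log2 ratio of -0.31 (-0.45 to -0.17). Its direction turned when every cell was weighted alike, at 70.2 CPM in Cocktail and 46.3 CPM in Vehicle cells as means of per-cell CPM, a log2 ratio of 0.60. With only cells of at least 5000 UMIs it was -0.39. Krt23 stood at 30.9 CPM (28.5 to 33.5) in Cocktail and 29.9 CPM (27.7 to 32.2) in Vehicle cells, a log2 ratio of 0.05 (-0.11 to 0.21) that did not exclude 0. Krt17 was at 0.922 CPM in Cocktail and 4.87 CPM in Vehicle cells, a log2 ratio of -2.40 (-3.21 to -1.67), and of -1.51 without the highest cell of each library. Krt17 was the 1 gene of the 6 past 2-fold, on the lower side, against 3.97% of 15322 genes, and 0 were past it on the higher side, against 2.67%.

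Within Gal and Cck rich cells the summed levels of Krt7, Krt8 and Krt18 were lower in the Cocktail library. The sum of the 6 had a log2 ratio of -0.45 (-0.54 to -0.35), or -0.06 as a mean of per-cell CPM. From the levels given above, Krt18 was at -1.05 (-1.41 to -0.70), Krt7 at -0.70 (-0.87 to -0.53) and Krt8 at -0.32 (-0.46 to -0.17), and the interval of Krt23 held 0, at -0.17 (-0.36 to 0.02). The share of cells with Krt8 and its median per cell went the other way. Its mean of per-cell CPM did not, at 321 CPM in Cocktail and 330 CPM in Vehicle cells. After thinning to 5000 UMIs, 49.6% of Cocktail and 42.3% of Vehicle cells of the gate had a Krt8 UMI, with overlapping intervals. In cells with at least 5000 UMIs its median was 127 CPM in Cocktail and 84.9 CPM in Vehicle cells. Krt17 had 8 UMIs in Cocktail, 7 of them in 1 cell, and 0 in Vehicle cells, and Krt19 had 0 and 1. Of the 4 genes with at least 50 UMIs, 3 were lower, against 12.8% of genes, and 0 higher, against 11.4%. Krt18 was past 2-fold lower, against 2.17% of 9865 genes, and 0 were past 2-fold higher, against 1.09%. The gate was shallower in the Cocktail library, at a median of 5749 UMIs against 15726 UMIs in the Vehicle library. Krt7 stood at 306 CPM in Cocktail and 344 CPM in Vehicle cells of the gate under 5000 UMIs, against 143 CPM in Cocktail and 246 CPM in Vehicle cells above it. As a mean of per-cell CPM the Krt7 ratio turned to 0.18, and in cells with at least 5000 UMIs it was -0.78. Looser and stricter gate thresholds left the direction of all 4 genes as it was, but Krt18 was then under 2-fold, at -0.42 with looser and -0.70 with stricter gates.

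Ceacam16 cells differed between the libraries in Krt8, which was higher in Cocktail cells by 0.45 (0.19 to 0.72), while Krt18 did not differ beyond counting error, at -0.01 (-0.21 to 0.19). Krt19 was lower there, at -1.20 (-2.18 to -0.21) on 20 Cocktail and 19 Vehicle UMIs. Of the 2 genes with at least 50 UMIs, 0 were past 2-fold, against 1.53% of 6005 genes higher and 1.68% lower. In other Epcam-positive cells Krt8 was slightly higher in the Cocktail library, at 0.09 (0.02 to 0.17), against 15.7% of genes, and the other 5 genes were lower, against 14.7%. Krt18 was at -0.19 (-0.26 to -0.12), Krt19 at -0.73 with an interval below 0, Krt7 at -0.80 (-1.10 to -0.51) and Krt23 at -0.83 (-1.20 to -0.46). Krt17 was past 2-fold lower, at -4.08 (-5.56 to -2.91) and -3.16 without the highest cells, against 3.04% of 11828 genes lower, and 0 of the 6 were past 2-fold higher, against 2.85%. As a mean of per-cell CPM, Krt18 in this gate stood at 0.0029, on the other side of 0. Krt19 was thus lower in the Cocktail library in both gates where it could be compared.

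**Figure D4:**
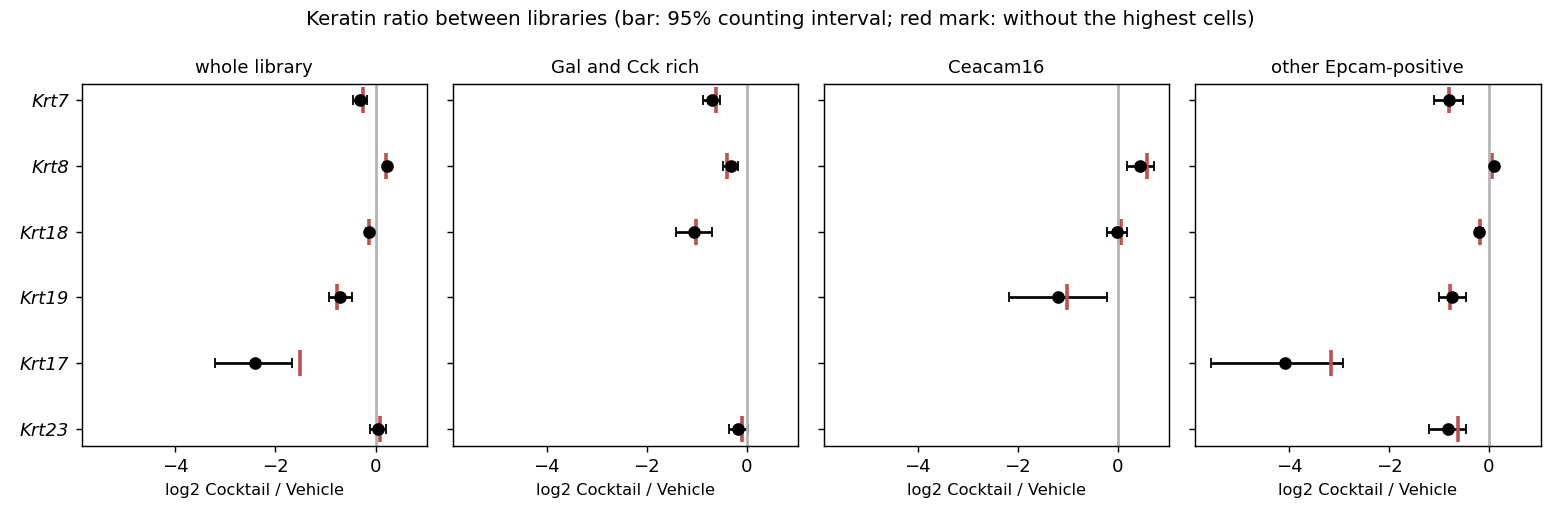
Log2 ratio of Cocktail over Vehicle for each keratin in the whole library and in 3 gates, with 95% counting intervals as bars and the ratio without the highest cells as a red mark; genes with under 30 UMIs in both libraries together, or with 0 UMIs in 1, are not drawn. Krt19 lies left of 0 in the 3 panels that show it, and Krt8 lies left of 0 in Gal and Cck rich cells and right of it in the other 3 panels.

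Among 47 other keratin genes, 3 had at least 50 UMIs over both libraries (Krt10, Krt83 and Krt78), 32 had 1 to 49 UMIs and 12 had 0. Krt83 (type II, known from hair, chr15:101485130-101491512, minus strand), whose 5′ end lies 80469 bp from that of Krt7, was also high in Gal and Cck rich cells. It stood at 127 CPM (115 to 140.5) in Cocktail and 107 CPM (95.4 to 120) in Vehicle cells of the Gal and Cck rich gate. Other Epcam-positive cells had 2.40 CPM (1.31 to 4.03) in Cocktail and 3.76 CPM (2.36 to 5.69) in Vehicle cells. The log2 ratio of Gal and Cck rich over other Epcam-positive cells was 5.73 (4.97 to 6.61) in Cocktail and 4.83 (4.21 to 5.53) in Vehicle cells. It was also found in cells outside every gate, at 46.6 CPM in Cocktail and 84.7 CPM in Vehicle cells, where Krt7 stood at 3.37 CPM in Cocktail and 1.24 CPM in Vehicle cells. Hair keratins have close relatives in the same cluster, and how reads shared between them were counted is not given in the sources used here. Krt10 (type I, a keratin of differentiating skin) was present at 46.1 CPM in Cocktail and 39.4 CPM in Vehicle cells of the Gal and Cck rich gate and at 24.4 CPM in Cocktail and 13.3 CPM in Vehicle cells of the Dcn gate, so it was not limited to epithelium. Krt10 overlaps the antisense model Gm11940.

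**Figure D5:**
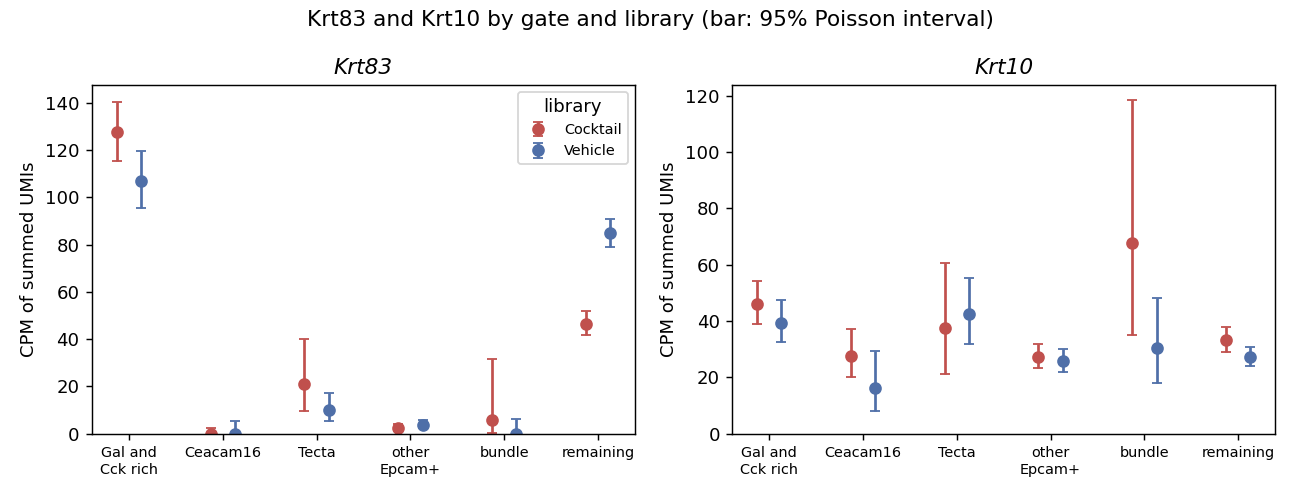
Level of Krt83 and Krt10 by gate, as CPM of summed UMIs, with Cocktail in red left of Vehicle in blue and 95% Poisson intervals as bars. Krt83 is high in Gal and Cck rich cells (127 CPM Cocktail, 107 CPM Vehicle) and in cells outside every gate, and Krt10 is present in all gates drawn.

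The genes whose level followed each keratin most closely were ranked by the lower of its r in both libraries, over 484 Cocktail and 547 Vehicle epithelial cells with at least 5000 UMIs and among 11773 genes. For Krt8 the first was Krt18 itself (r = 0.56 Cocktail, 0.63 Vehicle), before Cldn7, a tight junction claudin (0.35 Cocktail, 0.36 Vehicle), and Nlrp4e (0.45 Cocktail, 0.35 Vehicle). For Krt18 they were S100a11, a calcium-binding protein (0.64 Cocktail, 0.65 Vehicle), Tmem176a (0.62 Cocktail, 0.59 Vehicle) and Lcn2, the secreted lipocalin-2 (0.59 Cocktail, 0.64 Vehicle). Krt19 was followed by Cxcl16, a chemokine (0.36 Cocktail, 0.35 Vehicle), Krt18 and S100a11. Krt7 and Krt23 both had Cck first, at 0.40 in Cocktail and 0.42 in Vehicle cells for Krt7 and at 0.45 and 0.47 for Krt23, and Cck is a gene that set the gate. The next were Nfe2l3 and Rarres1 for Krt7, and Ramp3, a receptor accessory protein, and Bmyc for Krt23. Krt17 had no close gene (Mrm1, Grik4 and Itga9, at most 0.28).

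Genes that work with keratins were examined as lists. Of 18 desmosome and keratin linker genes, 15 had at least 50 UMIs in the whole library. Their median log2 ratio of Cocktail over Vehicle was 0.09, against -0.03 for all genes tested, and 6 were higher and 2 lower, against 18% of all genes higher and 24.4% lower. Dsp, the desmoplakin that ties keratin filaments to desmosomes, stood at 43.6 CPM in Cocktail and 25.8 CPM in Vehicle cells, a log2 ratio of 0.76 (0.60 to 0.91). Ppl, periplakin, stood at 44.8 CPM in Cocktail and 30.7 CPM in Vehicle cells (0.55, 0.40 to 0.69). Pkp1, plakophilin 1, had the largest ratio (2.69), but 173 of its 224 Cocktail UMIs lay in 1 cell, and without the highest cells it was 0.66. The 2 lower genes were Itga6, an integrin of hemidesmosomes, at -0.88 (-1.05 to -0.72), and Dst, a cytolinker, at -0.33 (-0.39 to -0.26). In Gal and Cck rich cells 12 had at least 50 UMIs, 3 were higher, against 11.4% of genes, and 1 was lower, against 12.8%, with Dsp at 0.40 (0.09 to 0.72). In other Epcam-positive cells 14 had at least 50 UMIs, of which 7 were higher, against 15.7% of genes, and 1 was lower, against 14.7%.

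Linker genes lay on both sides of 0 in Gal and Cck rich over other Epcam-positive cells. Of the 14 measured in the Cocktail library 4 were higher and 6 lower, against 25.8% of all genes higher and 25.7% lower. Of the 13 in the Vehicle library 4 were higher and 4 lower, against 27.5% of all genes higher and 25.6% lower. Evpl, envoplakin, stood at 23.1 CPM in Gal and Cck rich and 6.87 CPM in other Epcam-positive Cocktail cells (log2 1.75, 1.17 to 2.34). In Vehicle cells it stood at 24.4 CPM in Gal and Cck rich and 8.37 CPM in other Epcam-positive cells (log2 1.54, with an interval above 0). Pkp3, plakophilin 3, was lower by -2.72 (-3.89 to -1.75) in Cocktail and -2.38 (-3.48 to -1.44) in Vehicle cells. Plec, plectin, was lower by -2.22 (-2.55 to -1.90) in Cocktail and -0.70 (-1.08 to -0.34) in Vehicle cells, but 1 Cocktail cell held 337 of its 1655 library UMIs.

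Of 20 epithelial identity genes, 18 had at least 50 UMIs in the whole library, 11 were higher, against 18% of all genes, and 2 lower, against 24.4%, and their median log2 ratio was 0.21, against -0.03. Cdh1, the gene of E-cadherin, stood at 139 CPM in Cocktail and 81.9 CPM in Vehicle cells, a log2 ratio of 0.77 (0.68 to 0.85). Tjp1 had a larger ratio, at 1.70, but 1 Cocktail cell held 3480 of its 4948 UMIs, and without the highest cells it was -0.01. In Gal and Cck rich over other Epcam-positive cells, 0 of 17 were higher and 14 lower in the Cocktail library, against 25.8% of all genes higher and 25.7% lower. In the Vehicle library 1 of 18 was higher and 15 were lower, against 27.5% and 25.6% of all genes. Epcam, which set the other gate, was among the lower genes and is in these counts. The Gal and Cck rich gate did not require it, and 156 of its 232 Cocktail and 123 of its 175 Vehicle cells had an Epcam UMI. Choosing 1 side by an epithelial gene can itself make such a list lower on the other side, and its part here was not tested. Ovol2, an epithelial transcription factor, was lower by -3.05 (-4.21 to -2.08) in Cocktail and -2.68 (-3.85 to -1.71) in Vehicle cells.

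Of 16 other intermediate filament genes, 14 had at least 50 UMIs in the whole library, 0 were higher, against 18% of all genes, and 9 lower, against 24.4%, and their median log2 ratio was -0.55. The lowest were the neurofilament genes Nefm, at -1.65 (-1.81 to -1.49), Nefh, at -1.47 (-1.71 to -1.24), and Nefl, at -1.25 (-1.35 to -1.14). Without the highest cells Nefm was at -1.98, Nefh at -1.92 and Nefl at -1.74. Vim, vimentin, was higher in Cocktail cells within the Gal and Cck rich gate, at 55.8 CPM in Cocktail and 29.6 CPM in Vehicle cells (0.91, 0.53 to 1.30). Among other Epcam-positive cells it was at 59.7 CPM in Cocktail and 69.2 CPM in Vehicle cells (-0.21, -0.42 to -0.0014). In the Gal and Cck rich gate, 29 of 232 Cocktail and 28 of 175 Vehicle cells had a Vim UMI. The highest Cocktail cell there held 42 of the 179 Vim UMIs. In the other Epcam-positive gate the summed levels of Vim, Krt7 and Krt18 were all lower in Cocktail cells, and that of Krt8 was slightly higher.

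In cells of the bundle gate much of the keratin signal lay in single cells, which held 68 of the 79 keratin UMIs in Cocktail and 113 of the 249 in Vehicle cells. Of 9 Cocktail cells, 1 had 39 of the 41 Krt7 and 22 of the 26 Krt8 UMIs. Of 37 Vehicle cells, 5 had a Krt8 UMI, with 34 of 66 in 1 cell, and 6 had a Krt18 UMI, with 59 of 129 in 1 cell. Krt7 was found in 10 of these Vehicle cells, at 22.0 CPM, and Krt19 in 5, at 65.9 CPM, or 39.0 CPM without the highest cell. Krt7 stood at 231 CPM in the Cocktail cells, above its level in the Gal and Cck rich gate, and at 14.9 CPM without the highest cell. With so few cells no comparison between the libraries was made in this gate.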

How the data were processed

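Gene by barcode matrices of 2 10x libraries were used. Their values are UMI counts, written by Cell Ranger 5.0.0 per the file headers, and deposited with no normalization. The submitters' processing notes name the builds mm10 and GRCm38 and the tools Cell Ranger 5.0, STAR and Seurat 3.2.2. Whether the counting used strand, and any doublet removal, is not given in the sources used here, and no doublet caller was run. The 6 keratins and all gene lists were chosen with earlier results of these data known.

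Barcodes were kept from 500 UMIs and 300 genes upward, with mitochondrial UMIs no more than 20% of the total. They were assigned to the first gate passed, in the order bundle (Ptprq, Cabp2, Espn, Loxhd1 and Tmc1 at 500 CPM, 5 UMIs and 2 genes), Gal and Cck rich, Ceacam16, Tecta, other Epcam-positive, Dcn and a last gate that is not reported here, with at least 2 UMIs of each marker gene. UMIs were summed per gate and library and divided by the summed total (CPM). Each group is 1 library, so levels carry exact Poisson, shares Clopper-Pearson and ratios exact conditional 95% intervals, and no test was made. The depth of 19531019 Cocktail and 23017362 Vehicle UMIs in the kept cells sets a floor of 3 UMIs at 0.154 CPM in Cocktail and 0.130 CPM in Vehicle cells. A gate with under 50 cells in a library was not compared between libraries. Genes with at least 50 UMIs over both sides entered counts of genes past 2-fold. Named beside the keratins were, from each list, up to 3 genes higher and 3 lower, ranked by the interval bound nearest 0, and the 3 genes most like each keratin by the lower of its r in both libraries. Dsp, Vim, Evpl and others that this rule took in 1 contrast are given in further contrasts for comparison. Alternatives tried were the mean of per-cell CPM, other scalings, cell filters, gate thresholds and thinning, and leaving out the highest cell. The step that computes ratios was checked on simulated counts. Python 3.11.15 was used with numpy 2.4.6, scipy 1.17.1, pandas 2.3.3 and matplotlib 3.10.9.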

Additional observations from a re-analysis of the deposited data

Results flagged for a closer look

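Krt8 had opposite signs in different gates under the same contrast of Cocktail over Vehicle. The log2 ratio of summed levels was -0.32 in Gal and Cck rich cells, 0.45 in Ceacam16 cells and 0.092 in other Epcam-positive cells. The share of Gal and Cck rich cells with Krt8 after thinning to 5000 UMIs was higher in Cocktail, at 49.6% against 42.3% in Vehicle cells, with overlapping intervals. The difference between the gates was not tested.

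Krt7 had opposite signs in the libraries when other Epcam-positive cells with at least 2000 CPM of Gal were set against those with less. It was 1.57 in Cocktail and -1.28 in Vehicle cells. In Gal and Cck rich cells with at least 5000 UMIs, Krt8 in cells with at least 2 Atoh1 UMIs over cells with 0 was -1.12 in Cocktail and 0.58 in Vehicle cells. Neither difference between the libraries was tested, and both splits were added after the data were seen.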

How the results depend on the processing

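No paired analysis was possible because each group is 1 library. Alternatives were compared with the 95% counting interval of the main value. Of the sums, shares and counts, 40 values stayed within it (for counts, within 1.5 times), 25 moved and 3 turned sign from a main value whose interval excluded 0, and of the single genes 179, 58 and 4. From main values whose interval held 0, a further 3 and 6 values lay on the other side of 0, among them Krt18 in Ceacam16 cells under 3 alternatives (highest 0.087) and Krt23 in the whole library with gates weighted alike (-0.25).
When per-cell CPM values were averaged, Cocktail over Vehicle was 0.60 for Krt7 in the whole library, 0.18 for Krt7 in Gal and Cck rich cells and 0.0029 for Krt18 in other Epcam-positive cells. The sum of the 6 keratins was then 0.053 in the whole library, -0.061 in Gal and Cck rich, -0.068 in Ceacam16 and 0.051 in other Epcam-positive cells. Gal and Cck rich over other Epcam-positive cells stood at -0.56 in Cocktail and -0.44 in Vehicle cells for that sum. This setting weights shallow cells like deep ones.
With gates weighted alike the sum was -0.13 between the whole libraries. Stricter gates gave -0.32 in Gal and Cck rich and -0.20 in other Epcam-positive cells, and -0.84 between these gates in Cocktail cells.
Against only the other Epcam-positive cells with Gal, the sum in Gal and Cck rich cells was 0.15 in Cocktail and 0.87 in Vehicle cells, and Krt8 was 0.38 and Krt18 -0.24 in Vehicle cells. Against those with less Gal, the sum was -1.24 in Cocktail and -0.92 in Vehicle cells. It was -0.81 in Cocktail and -0.32 in Vehicle cells with Atoh1, and -0.63 and -0.99 in those without, and Krt23 was 0.22 in Vehicle cells with Atoh1. The causes were not tested.
The share of cells with any of the 6 keratins in the Gal and Cck rich gate was 57.8% in Cocktail and 45.0% in Vehicle cells thinned to 2000 UMIs, 70.7% and 61.5% at 5000 UMIs and 72.8% and 73.1% unthinned. In other Epcam-positive cells it was 61.4% in Cocktail and 64.5% in Vehicle cells at 2000 UMIs, 74% and 78.8% at 5000 UMIs and 86.6% and 86.0% unthinned. With no filter on UMIs, 68 genes of the other keratin, other intermediate filament and linker lists were compared between libraries. Of these, 10 were higher and 14 lower by 2-fold, against 11.4% and 11.9% of 23776 genes. The 32 with at least 50 UMIs gave 1 higher and 3 lower, against 2.67% and 3.97% of 15322 genes.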

Other observations

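Of the cells that passed no gate, 31 of 544 Cocktail and 68 of 670 Vehicle cells had a Krt83 UMI, with 318 UMIs in Cocktail and 817 UMIs in Vehicle cells. Krt10 was found in more of them, 136 Cocktail and 177 Vehicle cells, with 227 UMIs in Cocktail and 264 UMIs in Vehicle cells. These cells held Krt7 at 3.37 CPM in Cocktail and 1.24 CPM in Vehicle cells, and 11 Cocktail and 9 Vehicle cells had a Krt7 UMI. Krt8 and Krt18 stood at 20.2 and 26.4 CPM in such Cocktail cells and at 12.6 and 17.7 CPM in such Vehicle cells.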
